A study of Mus musculus with 6 samples.

Results

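The cells described here were CD8 T cells of mouse skin whose antigen receptor beta chain used a V segment other than Trbv13-3. They were chosen by their own UMI values, a UMI being 1 counted RNA molecule. A cell needed a UMI of Cd3e, Cd3d or Cd3g, a UMI of Cd8a or Cd8b1, and a UMI of a Trbv segment other than Trbv13-3. It was left out if it had a UMI of Cd4, of the gamma-delta chain gene Trdc or of Trbv13-3, if Krt5 and Krt14 together reached 20 UMIs per 10000, or if Mki67 and Top2a were both present. This gave 1106 of the 21178 deposited cells: 75 and 260 in the 2 NO_AG mice, 368 and 120 in the 2 AG mice, and 117 and 166 in the 2 AG_CPI mice. They are called host CD8 T cells, and the levels of the genes in this rule are a description and not a result.

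The study profiled skin of NINJA mice, a strain built to turn on expression of a neoantigen, at 6 to 12 weeks of age with the 10x Genomics 5' single-cell assay. All 3 groups shared the strain and skin treated with 4-OH-Tam, the active form of tamoxifen. In NO_AG the antigen was off, in AG it was on, and in AG_CPI it was on in mice that also received CPI, an abbreviation the labels do not spell out. Each group held 2 mice, and the labels give no sex, batch or date. The labels' protocols mention P14 CD8 T cells, which carry 1 transgenic receptor, as cells examined in the skin before sequencing, without saying how they came to be there. Cells of the same selection with a Trbv13-3 UMI, the beta segment of the P14 receptor, are called P14-like. They numbered 2 and 10 (NO_AG), 250 and 226 (AG) and 359 and 477 (AG_CPI).

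A T cell joins 1 V segment to D and J segments when it builds its receptor beta chain, so a population made of many clones uses many V segments. CD8 T cells kill target cells with perforin and granzymes and secrete interferon-gamma, and some stay in skin as resident memory cells held there by integrins such as the one Itgae encodes. Inhibitory receptors such as PD-1, the product of Pdcd1, appear on CD8 T cells after antigen contact and damp the response. Checkpoint blocking antibodies act on such receptors.

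The choice of cells rests on telling apart near-identical segments, so the V exons of the Trbv13 family are shown, from mm10 with GENCODE vM21. Each is the whole of exon 2, on the plus strand, 5' to 3'. Capitals in Trbv13-3 mark the 16 bases at which it differs from both of the others, and capitals in the others mark bases unlike Trbv13-3. Trbv13-3 lies at chr6:41130292-41130585, Trbv13-1 at chr6:41116175-41116468 and Trbv13-2 at chr6:41121539-41121832.
Trbv13-3: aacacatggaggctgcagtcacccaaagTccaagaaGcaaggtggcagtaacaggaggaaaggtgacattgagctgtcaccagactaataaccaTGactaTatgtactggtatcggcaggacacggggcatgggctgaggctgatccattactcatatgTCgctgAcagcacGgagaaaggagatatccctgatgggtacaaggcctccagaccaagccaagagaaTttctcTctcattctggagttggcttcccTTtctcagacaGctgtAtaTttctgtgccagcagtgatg
Trbv13-1: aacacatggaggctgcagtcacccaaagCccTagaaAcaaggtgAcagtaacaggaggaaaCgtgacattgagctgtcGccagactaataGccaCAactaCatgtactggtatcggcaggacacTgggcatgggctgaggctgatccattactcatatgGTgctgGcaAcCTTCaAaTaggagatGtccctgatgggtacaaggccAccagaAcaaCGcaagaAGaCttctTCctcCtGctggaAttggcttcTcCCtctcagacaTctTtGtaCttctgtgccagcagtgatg
Trbv13-2: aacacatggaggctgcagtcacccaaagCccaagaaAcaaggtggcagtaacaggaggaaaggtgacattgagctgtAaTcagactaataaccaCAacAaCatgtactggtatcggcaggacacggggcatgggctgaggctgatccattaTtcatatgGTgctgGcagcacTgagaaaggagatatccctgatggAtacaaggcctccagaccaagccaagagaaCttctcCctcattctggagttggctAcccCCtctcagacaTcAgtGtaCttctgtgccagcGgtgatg
Over the 294 bases, Trbv13-1 was 86.1% identical to Trbv13-3, with 41 bases unlike it, and Trbv13-2 was 91.8% identical, with 24 unlike it. How reads shared by these exons were assigned is not given in the sources used here, so a host cell with Trbv13-1 or Trbv13-2 alone is less certain than one with a segment of another family.

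Cd8b1, the CD8 beta chain that marks alpha-beta CD8 T cells, had a UMI in 83.3% to 95.8% of host cells per mouse, and Cd3e in 85.0% to 96.7%; both are genes of the rule, so these shares are set in part by it. Host and P14-like cells differed in the alpha chain, which the rule did not use. Trav14 segments, the alpha family of the P14 receptor, had a UMI in 6.67% and 8.46% of host cells in NO_AG, 12.8% and 10.8% (AG) and 19.7% and 15.7% (AG_CPI). In P14-like cells the shares were 87.2% and 79.2% (AG) and 72.1% and 83.9% (AG_CPI). In NO_AG a Trav14 UMI was seen in 0 of 2 and 3 of 10 P14-like cells, so the name is less certain there. Any alpha segment was seen in only 45.3% to 59.5% of host cells per mouse. Of the host cells with one, the share with Trav14 was 14.7% and 14.7% (NO_AG), 21.5% and 22.4% (AG) and 39.0% and 28.3% (AG_CPI), against 95.9% to 98.3% of such P14-like cells in the antigen-bearing mice. It was highest in both AG_CPI mice on either count. Most host cells carried 1 segment: 65, 205, 296, 104, 77 and 123 cells in NO_AG 1 and 2, AG 1 and 2, and AG_CPI 1 and 2. Another 10, 51, 64, 12, 37 and 34 cells had 2 segments, and 0, 4, 8, 4, 3 and 9 had 3 or more.

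The host cells of AG_CPI 1 stood apart in sex-linked genes. Xist, the RNA that silences an X chromosome in female cells, had a UMI in 5.13% of them, against 68.0% to 75.9% in the host cells of the other 5 mice. Ddx3y, a Y-linked gene, had a UMI in 9 of the 117 cells and in none of 989 host cells of the other 5 mice, which allows a share of cells with a UMI of up to 0.303% and does not limit how many cells express a gene this rarely seen. In the P14-like cells of the same mouse Xist had a UMI in 66.0%, within the range of 65.2% to 73.6% in the other antigen-bearing mice. So the host cells of AG_CPI 1 were male-like and its P14-like cells female-like. Differences between AG_CPI 1 and the other mice cannot be told apart from sex, and each limma comparison below was also computed without this mouse. A group with a mouse left out is 1 mouse, assumed in the fit to vary like the other groups. In its 9 host cells with a Ddx3y UMI, Gzma averaged 19.8, Pdcd1 1.74 and Ccl5 63.3 UMIs per 10000. These lay below the means over its 117 host cells, which were 36.5, 3.81 and 126, while Lag3 averaged 5.56 and was above its mean of 3.78. In its 111 host cells without an Xist UMI, Gzma averaged 38.4, Pdcd1 3.82, Lag3 3.93 and Ccl5 131, close to the means over all its host cells.

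The libraries held 1736 to 4972 cells and 5903724 to 24656382 UMIs, both lowest in AG_CPI 1. Host cells had median UMIs of 2304 and 2539.5 (NO_AG), 2429 and 2080 (AG) and 2360 and 2856.5 (AG_CPI), so depth per cell was similar across groups. Between 5 and 35 cell barcodes were shared by each pair of libraries. Levels are the mean over the host cells of a mouse, in UMIs per 10000. Differences are on the scale of log2(level + 0.1) after TMM scaling and understate changes of low genes. With 2 mice per group the smallest p of an exact two-sided permutation test is 0.333, so every call below is a limma call that borrows the spread of other genes.

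Of all cells, host CD8 T cells made up 1.51% and 6.35% (NO_AG), 10.5% and 2.57% (AG) and 6.74% and 7.52% (AG_CPI). The Wilson 95% intervals, which cover counting error only, were 1.21% to 1.89% in NO_AG 1 and 9.53% to 11.6% in AG 1. The 2 NO_AG mice, and likewise the 2 AG mice, lay further apart than the group means. The group means were 3.93% ± 3.42 in NO_AG, 6.54% ± 5.61 in AG and 7.13% ± 0.55 in AG_CPI (SD, n = 2). The exact permutation test gave p = 0.667 between AG and NO_AG, p = 1 between AG_CPI and AG, and p = 0.333 between AG_CPI and NO_AG. As a share of all gated CD8 T cells they were 67.6% and 76.7% (NO_AG), 49.7% and 24.3% (AG) and 17.4% and 21.3% (AG_CPI). On this scale the groups did not overlap and were ordered NO_AG, AG, AG_CPI, with an exact permutation p of 0.333 for each pair, the smallest possible. The P14-like cells made up 0.0402% and 0.244% (NO_AG), 7.14% and 4.85% (AG) and 20.7% and 21.6% (AG_CPI) of all cells. In the antigen-bearing mice the exclusion of Trdc removed more P14-like than host cells. With Trdc allowed, P14-like cells went from 250 and 226 to 427 and 362 (AG) and from 359 and 477 to 580 and 778 (AG_CPI). Host cells went from 368 and 120 to 372 and 127 (AG) and from 117 and 166 to 133 and 174 (AG_CPI). CD8 T cells in which no beta segment was seen, 34 to 195 per mouse, belong to neither class.

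Host cells used many segments in every mouse. Among cells with 1 segment, 14 to 18 of the 18 other Trbv segments in the files were seen per mouse. The effective number of segments, the number that would give the same diversity if all were equally common, was 10.0 and 9.98 (NO_AG), 12.7 and 10.2 (AG) and 6.22 and 9.68 (AG_CPI). AG_CPI 1 was the lowest. There Trbv19 was held by 25 of 77 cells, or 32.5%, against 3.85% to 14.6% in the other 5 mice. In AG_CPI 2 the most common segments were Trbv15, with 19.5% of cells, and Trbv20, with 17 of 123 cells. Trbv15 ranged from 7.80% to 12.5% in NO_AG and AG and was 15.6% in AG_CPI 1. Single-cell clonotypes were not used here, so cells with the same segment need not be 1 clone.

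With antigen on, host CD8 T cells carried more RNA of some interferon-induced genes, in calls that depended on single mice. Of 7612 genes tested in AG against NO_AG, 19 passed an adjusted p of 0.05, which is 0.25%. 17 were higher (0.223%) and 2 lower (0.0263%). 6 of 25 tested interferon response genes rose and none fell, and 23 of the 25 had a positive difference, with a median log2 difference of 0.79 against 0.01 over all genes. All 6 kept a positive difference but missed the threshold without NO_AG 1, without NO_AG 2 and without AG 2 (adjusted p 0.15 to 0.81) and without the filter on low values (0.45 to 0.78), and Rtp4 also without AG 1 (adjusted p 0.054).

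Isg15, a ubiquitin-like antiviral protein, averaged 0.690 and 0.524 (NO_AG), 1.71 and 5.08 (AG) and 1.18 and 1.90 (AG_CPI). Both AG mice lay above both NO_AG mice, and the log2 difference was 2.18 (SE 0.35, adjusted p 0.0089). Ifit3, which helps sense foreign RNA, was at 0.103 and 0.0534 (NO_AG), 0.623 and 1.70 (AG) and 0.0593 and 0.322 (AG_CPI). It was near 0 in NO_AG and in AG_CPI 1, higher in both AG mice, and the log2 difference of AG against NO_AG was 2.73 (SE 0.46, adjusted p 0.012). Bst2, which tethers budding virus to the cell, was at 0.791 and 0.883 (NO_AG), 1.83 and 3.004 (AG) and 1.40 and 1.97 (AG_CPI). Both AG mice lay above both NO_AG mice, while AG 1 lay below AG_CPI 2, and the difference of AG from NO_AG was 1.44 (SE 0.26, adjusted p 0.017). Ifit1, a relative of Ifit3, was at 0.158 and 0.0573 (NO_AG), 0.558 and 1.58 (AG) and 0.134 and 0.569 (AG_CPI). Both AG mice lay above both NO_AG mice and AG 1 was close to AG_CPI 2, with a difference of AG from NO_AG of 2.42 (SE 0.47, adjusted p 0.023). The other 2 were Rtp4 (2.06, adjusted p 0.017) and Ifi27l2a (1.57, adjusted p 0.017).

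**Figure D1:**
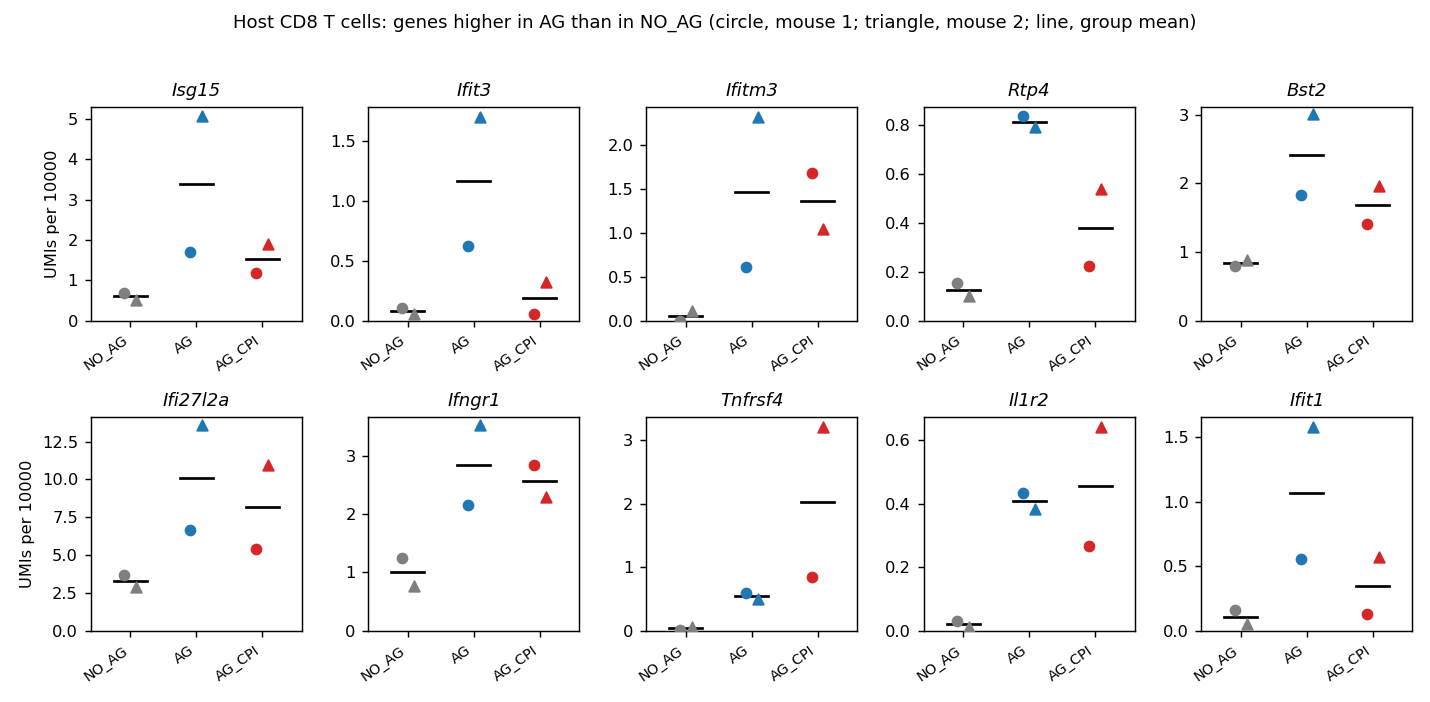
Mean level in host CD8 T cells (UMIs per 10000, linear axis from 0) of 10 genes higher in AG than in NO_AG, with 1 point per mouse and a line at the mean of 2 mice. Both AG points lie above both NO_AG points in each panel, and Isg15 reaches 5.08 in AG 2 and 1.71 in AG 1.

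The promoters of these genes were searched for the site that interferon-activated factors bind. The core of the interferon-stimulated response element was searched as GAAA, any 2 bases and GAAA again on both strands (TTTC on the reverse), in the 250 bases before the RefSeq start (GRCm38.p6). All 4 of the 6 called genes with an entry held it (Bst2, Ifit1, Ifit3 and Isg15), as did 12 of 20 listed genes with an entry and 3.463% of 27025 genes. Isg15 lies on the minus strand with its upstream window at chr4:156200819-156201068, and Ifit3 on the plus strand with its window at chr19:34583279-34583528. Both are written in the direction of transcription, with matches in capitals. Matches may overlap, and a match is a run of letters, not a shown binding site.
Isg15: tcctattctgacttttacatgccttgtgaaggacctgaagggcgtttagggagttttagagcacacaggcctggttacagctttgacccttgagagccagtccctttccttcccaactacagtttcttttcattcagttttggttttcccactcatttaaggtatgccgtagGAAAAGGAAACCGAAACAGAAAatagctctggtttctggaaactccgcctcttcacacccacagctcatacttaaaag
Ifit3: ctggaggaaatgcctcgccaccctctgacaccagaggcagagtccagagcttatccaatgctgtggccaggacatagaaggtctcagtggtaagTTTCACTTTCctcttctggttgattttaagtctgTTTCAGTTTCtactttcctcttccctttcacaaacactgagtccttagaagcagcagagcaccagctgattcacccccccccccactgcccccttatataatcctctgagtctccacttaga
The 3 overlapping matches of Isg15 begin between 78 and 66 bases before the start, and the 2 of Ifit3 begin 156 and 122 bases before it.

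The same RNAs were also high in other cells of the AG mice. In keratinocytes without Cd3 UMIs, Isg15 was at 0.23 and 0.43 (NO_AG), 4.28 and 6.58 (AG) and 1.65 and 1.81 (AG_CPI). In Lyz2-positive cells without Cd3 it was at 0.24 and 1.39, then 12.3 and 15.5, then 5.59 and 8.37. Ifitm3, an antiviral membrane protein, rose from 0 and 0.105 in NO_AG to 0.614 and 2.32 in AG host cells, with a log2 difference of 3.24 (SE 0.44, adjusted p 0.0012), while keratinocytes held 6.17 to 6.88 in NO_AG and 19.5 to 23.0 in AG. Ifit3 was at most 0.25 in keratinocytes, below the host cells of both AG mice, and reached 1.22 in Lyz2-positive cells. The part of free RNA from other cells in these differences was not tested.

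1 of 14 tested cytokine receptors, Ifngr1, and 1 of 11 costimulatory receptors, Tnfrsf4, were also higher in AG, with list medians of 0.09 and 0.16. Ifngr1, a chain of the interferon-gamma receptor, was at 1.24 and 0.777 (NO_AG), 2.15 and 3.52 (AG) and 2.83 and 2.28 (AG_CPI). NO_AG was lowest, AG and AG_CPI overlapped, and AG exceeded NO_AG by 1.45 (SE 0.27, adjusted p 0.017). Tnfrsf4, the costimulatory receptor OX40, was at 0.0141 and 0.0625 (NO_AG), 0.595 and 0.501 (AG) and 0.852 and 3.21 (AG_CPI). It was barely seen in NO_AG, and the difference of AG was 2.29 (SE 0.43, adjusted p 0.018). Il1r2, a decoy receptor for interleukin-1, differed by 2.09 (SE 0.40, adjusted p 0.023) and had 2 UMIs in all NO_AG host cells together, a pooled ratio of 32.6 with a counting interval of 8.78 to 273. Tff1, a secreted trefoil peptide, differed by 1.84 (SE 0.35, adjusted p 0.02) with 1 UMI in NO_AG, a pooled ratio of 41.7 with an interval of 7.20 to 1671. Its call was lost in 15 of 21 alternatives, where its difference ran from 0.64 to 4.39, and that of Il1r2 in 10.

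Gzmc, a granzyme, was the gene that fell most clearly when antigen was on, at 2.50 and 3.1 (NO_AG), 0.198 and 0.252 (AG) and 0.306 and 0.526 (AG_CPI). Both NO_AG mice lay well above all 4 antigen-bearing mice, and AG against NO_AG differed by -3.10 (SE 0.30, adjusted p 8.1e-06). Trgv2, a gamma chain segment, was the other gene that fell. Gzmc was the 1 of 14 cytotoxic effector genes to pass in AG against NO_AG. The granzyme genes Gzma and Gzmb and the inhibitory receptor genes Lag3 and Pdcd1 did not pass: Gzma differed by 0.86 (SE 0.22, adjusted p 0.14), Gzmb by -0.50 (SE 0.19, adjusted p 0.62), Lag3 by 0.46 (SE 0.38, adjusted p 0.88) and Pdcd1 by 0.91 (SE 0.45, adjusted p 0.77). AG 1 and AG 2 differed from each other for several of these. Pdcd1 was at 0.08 in AG 1 and 0.73 in AG 2, and Havcr2 at 0.16 and 0.99. Without AG 1, which leaves AG 2 as the only AG mouse, 49 genes passed, Pdcd1 (2.01, adjusted p 0.002) and Havcr2 (2.23, 0.001) among them.

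Calls in this comparison rested on few libraries. 2 genes passed without NO_AG 1, 6 without NO_AG 2 and 3 without AG 2, and of the 11 genes named by the rule for this comparison 10, 9 and 10 were lost; Gzmc passed under each of these. 8 of the 11 were lost with voom weights and 6 without the cells that had a Trav14 UMI. Monocyte and macrophage markers summed to 0.53 and 0.98 (NO_AG), 1.67 and 7.36 (AG) and 7.53 and 2.21 (AG_CPI) in host cells, with Lyz2 at 0 to 0.07 in NO_AG and AG 1 and 1.49 in AG 2. Dendritic and Langerhans markers summed to 1.91 and 11.6, then 16.3 and 29.8, then 24.1 and 7.67. Of these, Cd207, a marker of Langerhans cells, was at 0 in AG 2 and both AG_CPI mice, where Cd74 was at 13.6, 12.1 and 4.49. Keratinocyte markers outside the rule summed to 3.15 and 6.01, then 11.9 and 7.0, then 2.43 and 3.04. Of 10 monocyte and macrophage markers 2 and 7 had a UMI in NO_AG, 9 and 9 in AG, and all 10 in AG_CPI, against 6 to 9 of 10 dendritic and 9 or 10 of 10 keratinocyte markers per mouse. C1qb, H2-Ab1 and Lgals7, markers of such cells, were among the 17 higher genes, and the part of these cells was not tested.

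With CPI added to antigen, host CD8 T cells held more RNA of the granzymes Gzma and Gzmb and of 5 of 11 inhibitory receptors and less RNA of Tcf7, Trat1, Lmna and Il2. 83 of the 7612 genes passed in AG_CPI against AG (1.09%), 41 higher (0.539%) and 42 lower (0.552%). All 3 comparisons of host cells share groups, so their values are not independent of each other.

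Gzma, the granzyme A protease, averaged 1.38 and 2.47 (NO_AG), 2.89 and 3.76 (AG) and 36.5 and 37.1 (AG_CPI). Both AG_CPI mice were near 37 and the other 4 below 4, a log2 difference from AG of 3.42 (SE 0.22, adjusted p 4.1e-09). Keratinocytes of the same mice held 0.001 and 0.006 (NO_AG), 0.034 and 0.491 (AG) and 0.351 and 1.30 (AG_CPI). Gzmb, granzyme B, was at 5.64 and 5.45 (NO_AG), 3.12 and 4.45 (AG) and 10.4 and 10.9 (AG_CPI). It was highest in AG_CPI and differed from AG by 1.46 (SE 0.19, adjusted p 0.00021). Ccl5, a chemokine that draws other leukocytes, was at 46.1 and 35.5 (NO_AG), 35.01 and 51.4 (AG) and 126 and 127 (AG_CPI). AG and NO_AG overlapped, and AG_CPI lay above both by 1.55 (SE 0.18, adjusted p 7.8e-05) relative to AG. Lyz2-positive cells also held Ccl5, at 41.1 and 63.4 in AG, above the host cells of the same mice, and at 57.5 and 68.4 in AG_CPI, below them. Of 14 tested cytotoxic effector genes 2 rose, Gzma and Gzmb, and 1 fell, Tnf (-1.70, adjusted p 0.023), with a median log2 difference of 0.48 against -0.02 over all genes. Perforin (Prf1) differed by 0.92 (SE 0.35, adjusted p 0.37) and interferon-gamma (Ifng) by -0.19 (SE 0.25, adjusted p 0.89), and neither passed.

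Of 11 tested inhibitory receptors 5 rose and none fell, and the median log2 difference was 1.55. Pdcd1, which encodes PD-1, was at 0.123 and 0.0966 (NO_AG), 0.0782 and 0.732 (AG) and 3.81 and 3.79 (AG_CPI). Both AG_CPI mice lay above the other 4, of which AG 2 was the highest, with a log2 difference from AG of 3.33 (SE 0.45, adjusted p 0.00021). Lag3, which binds MHC class II, was at 0.393 and 0.257 (NO_AG), 0.209 and 0.908 (AG) and 3.78 and 3.77 (AG_CPI). The 2 AG_CPI mice were alike, and the difference from AG was 2.78 (SE 0.38, adjusted p 0.00021). Tigit, a receptor for poliovirus-receptor family proteins, was at 0.292 and 0.170 (NO_AG), 0.275 and 0.707 (AG) and 2.67 and 3.46 (AG_CPI). Its groups did not overlap between AG and AG_CPI, with a difference of 2.50 (SE 0.34, adjusted p 0.00021). Havcr2, which encodes TIM-3, differed by 2.53 (SE 0.43, adjusted p 0.0029), and Ctla4, which competes for the ligands of CD28, by 2.20 (SE 0.35, adjusted p 0.0014). In keratinocytes Pdcd1 was at most 0.067 and Lag3 at most 0.166. CD4 and regulatory T cell markers other than Cd4 summed to 1.45 and 1.90 (NO_AG), 1.52 and 1.12 (AG) and 2.34 and 3.67 (AG_CPI) in host cells, with 4 or 5 of 5 detected per mouse. Ctla4, which is on both lists, made up 1.28 and 1.86 of the AG_CPI sums. Ikzf2 was at 0.494 and 0.479 in AG and 0.882 and 1.38 in AG_CPI. Foxp3, which defines regulatory T cells, had no UMI in the host cells of either NO_AG mouse and was at 0.136 and 0.0234 (AG) and 0.0397 and 0.415 (AG_CPI). The part of such cells in the inhibitory receptor differences was not tested.

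The calls of Havcr2 and Ctla4 depended on the AG_CPI mice. Havcr2 was at 2.69 with adjusted p 0.082 without AG_CPI 1 and at 2.38 with 0.097 without AG_CPI 2, and Ctla4 at 1.96 with 0.083 without AG_CPI 2. Gzma, Gzmb, Ccl5, Pdcd1, Lag3 and Tigit passed whichever mouse was left out. Without the filter on low values 18 of the named genes missed the threshold, among them Ccl5 (adjusted p 0.053), Tigit (0.060), Lag3 (0.072) and Pdcd1 (0.086). Without AG_CPI 1, the mouse with male-like host cells, 20 genes passed. Without AG 1 38, without NO_AG 1 47, without NO_AG 2 51 and without AG_CPI 2 50 passed.

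**Figure D2:**
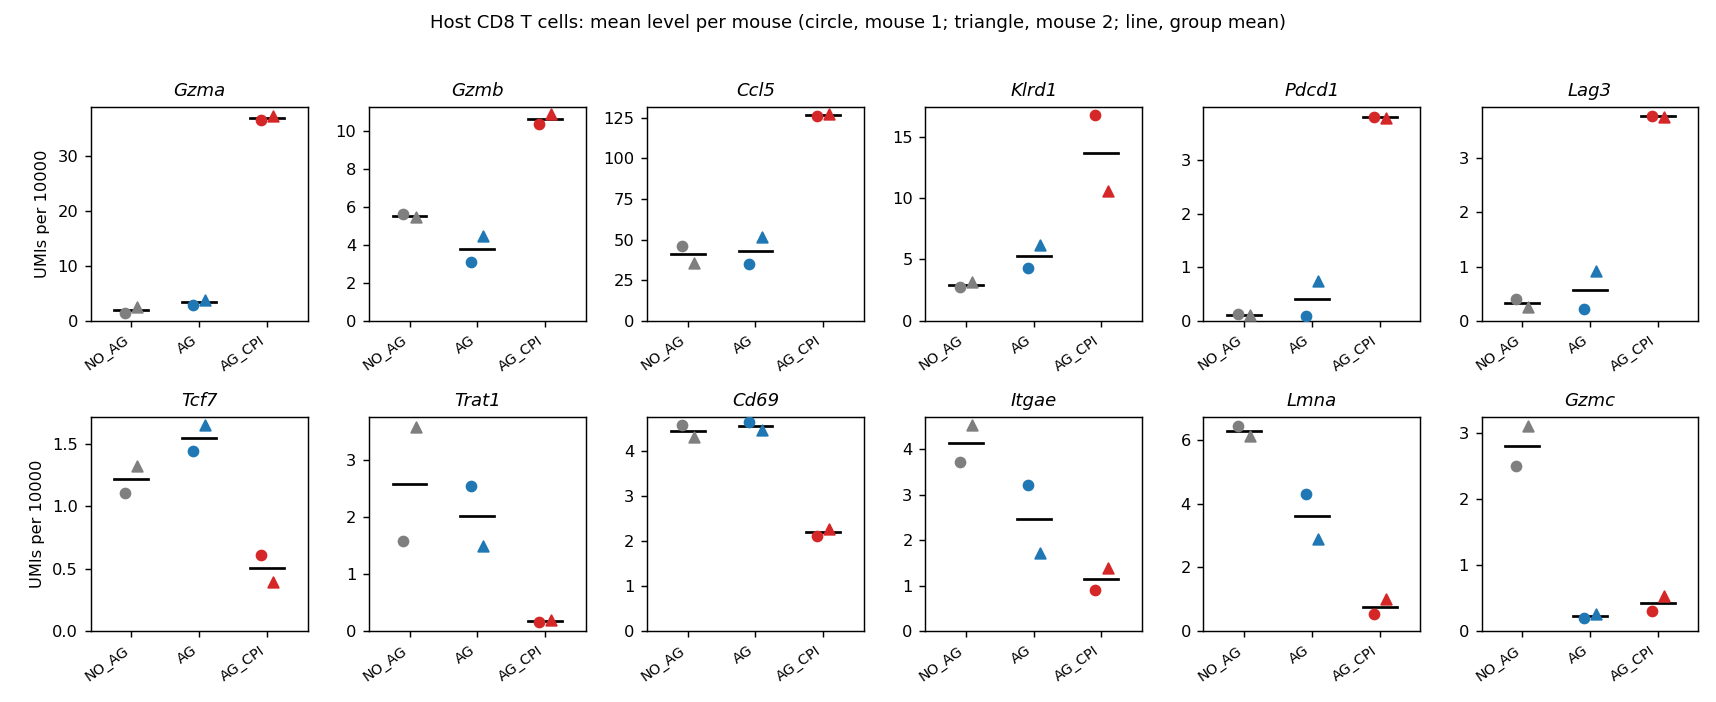
Mean level in host CD8 T cells (UMIs per 10000, linear axis from 0) of 12 genes, with 1 point per mouse and a line at the mean of 2 mice. Gzma sits at 36.5 and 37.1 in AG_CPI and below 4 elsewhere, Lmna and Trat1 are lowest in AG_CPI, and Gzmc is high in NO_AG only among these 6 mice.

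Tox, a transcription factor of chronically stimulated T cells, was at 0.229 and 0.400 (NO_AG), 0.193 and 0.334 (AG) and 1.49 and 1.43 (AG_CPI). It was 1 of 17 listed effector and exhaustion transcription factors to pass, with 2.11 (SE 0.32, adjusted p 0.00083), while 16 of the 17 had a positive difference (median 0.59). Without AG_CPI 1 its difference was 2.08 with adjusted p 0.052. Further rising genes were Nrn1, a glycosylphosphatidylinositol-anchored protein first known from neurons (3.13, SE 0.43, adjusted p 0.00021), Penk, the enkephalin precursor (2.85, SE 0.41, adjusted p 0.00042), and Tff1 (2.59, SE 0.35, adjusted p 0.00021). Penk was no longer called when each mouse gave an equal number of cells, at 0.66 with adjusted p 0.80. NK-type receptors rose in 3 of 8 tested genes, Klrk1, Klrd1 and Klrc1, and none fell, while 4 of the 8 had a positive difference. Costimulatory receptors rose in 2 of 11, Icos and Tnfrsf9, while Cd40lg of the same list fell. Nr4a2 was the 1 of 13 antigen receptor response genes that rose, and 4 of the 13 had a positive difference. Over all genes 0.539% rose and 0.552% fell.

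Of 15 listed naive and memory genes 2 fell, Tcf7 and Trat1, none rose, and the median log2 difference was -0.07. Tcf7, the transcription factor TCF-1 of memory and stem-like T cells, was at 1.11 and 1.32 (NO_AG), 1.44 and 1.65 (AG) and 0.607 and 0.396 (AG_CPI). Both AG_CPI mice were lowest, with a log2 difference from AG of -1.50 (SE 0.27, adjusted p 0.0048). Trat1, a T cell receptor adaptor, was at 1.59 and 3.59 (NO_AG), 2.54 and 1.49 (AG) and 0.162 and 0.188 (AG_CPI), and fell by 2.93 on the log2 scale (adjusted p 4.7e-05). Lmna, a nuclear lamina gene, was at 6.44 and 6.13 (NO_AG), 4.32 and 2.90 (AG) and 0.534 and 0.996 (AG_CPI). Its order was NO_AG, AG, AG_CPI without overlap, and AG_CPI differed from AG by -2.15 (SE 0.26, adjusted p 9.4e-05). Rgcc, a regulator of the cell cycle, differed by -2.20 (SE 0.29, adjusted p 0.00021), and Cd7, a T cell surface glycoprotein, by -1.58 (SE 0.24, adjusted p 0.0008). Tcf7 no longer passed without AG_CPI 2 (-1.24, adjusted p 0.093), with thinned cells (-1.29, 0.058) or with equal numbers of cells per mouse (-1.25, 0.058), and Cd7 without AG_CPI 1 (-1.49, 0.068). Il7r, the interleukin-7 receptor, was at -0.86 (SE 0.23, adjusted p 0.086) and did not pass.

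Il2 and Cd40lg, made by activated T cells, and Cd69 fell with CPI. Il2, the T cell growth factor, was at 0.284 and 1.01 (NO_AG), 1.53 and 0.372 (AG) and 0 and 0.0587 (AG_CPI), with 155 UMIs in AG and 3 in AG_CPI, a pooled ratio of 32.7 (counting interval 11.0 to 160). The fitted difference was -2.83 (SE 0.51, adjusted p 0.0053), and it was lost without AG 1 (-1.91, adjusted p 0.23) or AG_CPI 1 (-2.49, 0.21). Cd40lg, the CD40 ligand, had 57 UMIs in AG, 79 in NO_AG and none in AG_CPI. Its levels were 0.747 and 1.08 (NO_AG), 0.557 and 0.181 (AG) and 0 and 0 (AG_CPI), with 52 of the 57 AG UMIs in AG 1. Against a floor of 3 counts over the AG_CPI group it was at least 12.0-fold lower than in AG and 24.8-fold lower than in NO_AG, and at least 4.38-fold lower than in AG 2 alone. The fitted difference from AG was -2.13 (SE 0.41, adjusted p 0.0098), and it was lost without AG 1 (-1.50, adjusted p 0.36), AG_CPI 1 (-2.13, 0.13) or AG_CPI 2 (-2.13, 0.078). Cd69, an early activation and residency marker, was at 4.58 and 4.33 (NO_AG), 4.64 and 4.48 (AG) and 2.12 and 2.27 (AG_CPI) and fell by 1.05 on the log2 scale (adjusted p 0.0075). It was level across the first 4 mice and lower in both AG_CPI mice. Among dissociation and stress genes Fos and Ier2 fell, 2 of 12 tested.

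Few genes of the other lists passed between AG and AG_CPI. Cd69 was the 1 of 13 residency genes to fall, while Itgae (-1.04, SE 0.27, adjusted p 0.079), Itga1 (0.16) and Cxcr6 (0.66) did not pass. Cxcr3, a receptor for interferon-induced chemokines, was the 1 of 9 chemokine receptors to fall, at -1.15 (SE 0.24, adjusted p 0.019), and it was lost when any mouse except AG_CPI 2 was left out. Tmsb10, which binds actin monomers, differed by -0.79 (SE 0.15, adjusted p 0.0072) and was lost without AG 1, AG_CPI 1 or AG_CPI 2. Of 25 interferon response genes none rose and 2 fell, Ifit3 and Socs1, with a median of -0.50. No gene passed among 14 cytokine receptors, 19 replication and cell cycle genes, 4 type 17 and 3 type 2 genes; cells with both Mki67 and Top2a had been left out by the rule. Gapdh was the 1 of 13 glycolysis genes that rose. The keratins Krt17 and Krt79 were among the genes that fell; Krt5 and Krt14 were also lower, but the rule limits both, so theirs is no result. Keratinocyte markers outside the rule summed to 2.43 and 3.04 in AG_CPI host cells against 11.9 and 7.0 in AG. Their part in the result was not tested.

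**Figure D3:**
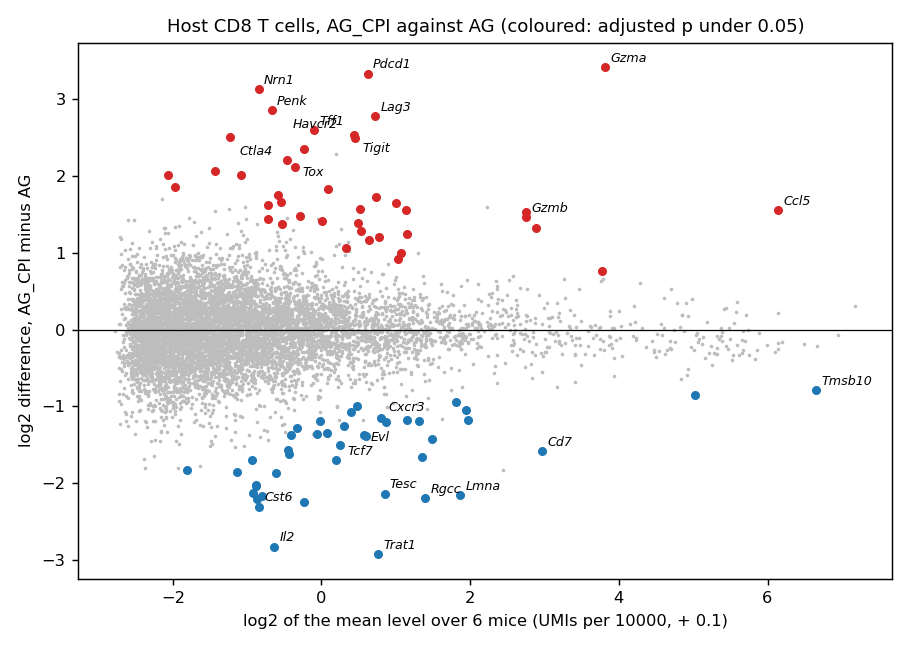
Each point is 1 of 7612 genes in host CD8 T cells, with the log2 mean level over 6 mice (UMIs per 10000, plus 0.1) on the x axis and the log2 difference of AG_CPI minus AG on the y axis. Coloured points are the 41 higher and 42 lower genes, and Gzma lies at a difference of 3.42.

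The share of host cells with a Gzma UMI was higher in AG_CPI. To compare it at 1 depth, each cell was thinned to 1500 UMIs, which left out no cell. Gzma then had a UMI in 4.00% and 3.08% (NO_AG), 4.62% and 6.67% (AG) and 41.0% and 34.3% (AG_CPI) of host cells, and unthinned in 46.2% and 42.8% in AG_CPI. So most host cells of both AG_CPI mice showed no Gzma UMI, and the median level was 0 in every mouse. The upper quartile was 29.5 and 31.3 UMIs per 10000 in AG_CPI and the 90th percentile 96.9 and 126. In keratinocytes, which should lack Gzma, the thinned share was 0.0418% and 0.0582% (NO_AG), 0.531% and 5.79% (AG) and 3.52% and 16.5% (AG_CPI), with median UMIs of 2230.5 to 6920.5 against 2080 to 2856.5 in host cells. The host share of AG 2 was thus close to that background, while both AG_CPI mice were above theirs. At 5 or more Gzma UMIs in the thinned cell the host shares were 2.67%, 1.15%, 2.17%, 3.33%, 23.9% and 24.1%.

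Cells with UMIs of several inhibitory receptor genes were more frequent in AG_CPI, by description. The share of such cells goes up when each gene goes up, and whether the genes fell in the same cells more often than their single shares give was not tested. Of Pdcd1, Lag3, Havcr2, Tigit and Ctla4, 2 or more had a UMI in 1.33% and 1.15% (NO_AG), 1.09% and 10.0% (AG) and 48.7% and 47.6% (AG_CPI) of thinned host cells. AG 2 stood above the other mice without CPI and far below both with it. No gene of the 5 was seen in 89.3%, 91.2%, 90.2% and 72.5% of cells of the first 4 mice and in 18.8% and 25.3% in AG_CPI. In keratinocytes, as a background, 1 or more of the 5 was seen in 0.334% and 0.407% (NO_AG), 0.531% and 9.79% (AG) and 0.704% and 6.69% (AG_CPI), so the background was itself higher in AG 2 and AG_CPI 2. The corresponding host share was 27.5% in AG 2 and 81.2% and 74.7% in AG_CPI. Pdcd1 alone had a UMI in 42.7% and 38.0% of AG_CPI host cells, against 1.33% and 1.92% in NO_AG and 1.09% and 6.67% in AG. Cells with both Gzma and an inhibitory receptor made up 37.6% and 29.5% in AG_CPI, and cells with an inhibitory receptor but no Gzma 43.6% and 45.2%. In P14-like cells 2 or more of the 5 genes were seen in 62.8% and 47.3% (AG) and 37.3% and 45.1% (AG_CPI). Host cells of AG_CPI thus reached shares within the range of P14-like cells, by description and with no test.

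**Figure D4:**
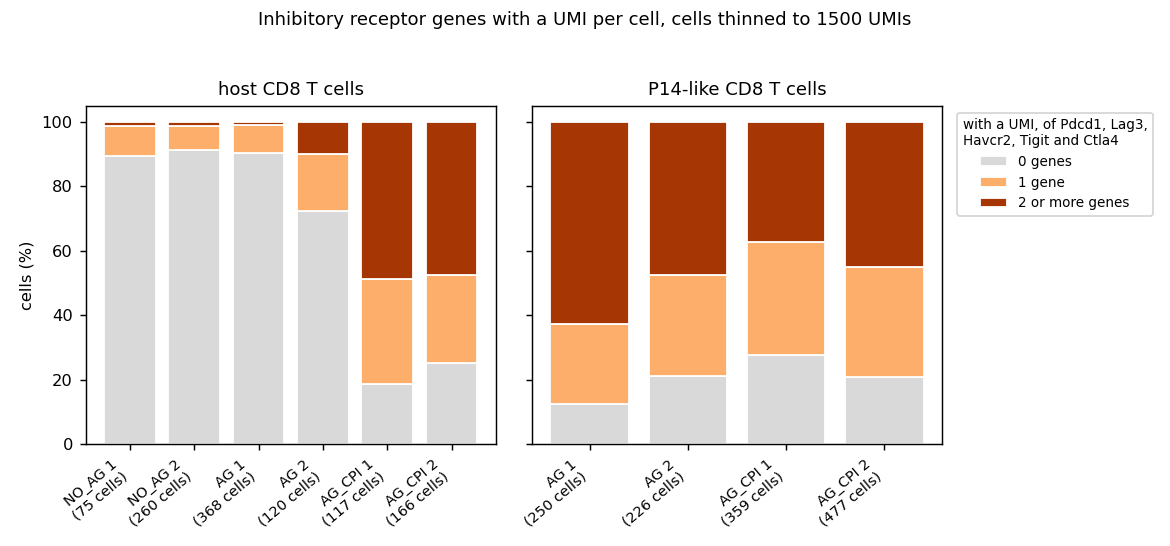
Stacked bars give the share of cells (%) with a UMI of none, 1, or 2 or more of Pdcd1, Lag3, Havcr2, Tigit and Ctla4, in cells thinned to 1500 UMIs, for host cells of 6 mice and P14-like cells of the 4 antigen-bearing mice. The share with 2 or more is 48.7% and 47.6% in host cells of AG_CPI and at most 10.0% in host cells of the other 4 mice.

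Gzma in AG_CPI varied between beta segments. Among segments held by at least 5 cells with 1 segment, 5 of 5 in AG_CPI 1 and 10 of 11 in AG_CPI 2 had a cell with Gzma. The mean per segment ran from 1.39 (Trbv13-2, 7 cells) to 59.3 (Trbv19, 25 cells) in AG_CPI 1, with a median of 13.0. In AG_CPI 2 it ran from 0 (Trbv12-1, 6 cells) to 72.1 (Trbv16, 9 cells), with a median of 28.0. Trbv15, with 12 and 24 cells, was at 32.2 and 33.9, and Trbv19 at 21.2 in the 6 cells of AG_CPI 2. Segments varied in the other 4 mice as well. There 2 of 6 and 6 of 13 (NO_AG) and 9 of 16 and 4 of 9 (AG) such segments had a cell with Gzma. The highest mean per segment was 4.11 and 29.9 (NO_AG) and 18.1 and 22.0 (AG), and the lowest was 0 in each. The numbers of cells are small, and these values are a description.

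The alpha chain was looked at in the same way, in subsets of host cells chosen after the data were seen. In host cells without a Trav14 UMI, Gzma was at 1.48, 2.57, 2.82, 3.87, 35.1 and 36.4 over NO_AG 1 and 2, AG 1 and 2, and AG_CPI 1 and 2. Many of these cells had no alpha segment seen at all, so cells with a P14-type alpha chain may be among them. In the cells with an alpha segment of another family and no Trav14, 36 in AG_CPI 1 and 66 in AG_CPI 2, Gzma was at 11.4 and 44.7, Pdcd1 at 3.26 and 4.27 and Lag3 at 3.07 and 3.88. In the NO_AG and AG mice, with 29 to 172 such cells, Gzma was at 0.584 to 2.39, Pdcd1 at 0 to 0.615 and Lag3 at 0.228 to 0.733. The AG_CPI mice were above the other 4 for all 3 genes, but Gzma in AG_CPI 1 was well below its mean of 36.5 over all host cells.

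Against NO_AG, the AG_CPI host cells differed in 187 genes (2.46%), 113 higher (1.48%) and 74 lower (0.972%). Inhibitory receptors rose in 7 of 11, adding Entpd1, the ectonucleotidase CD39 (2.72, adjusted p 0.00062), and Cd200r1, while Cd101 fell. The median log2 difference of the list was 2.72 against -0.01 over all genes. Of the 17 transcription factors 8 rose (Tox, Batf, Irf8, Nfatc1, Maf, Bhlhe40, Zeb2 and Hif1a). Gzmk and Srgn joined Gzma and Gzmb among the cytotoxic genes, where Gzmc and Tnf fell. The chemokine genes Ccl3, Ccl4 and Ccl5 rose, 3 of 5. C1qa, C1qb and C1qc, complement genes of macrophages, were also among the higher genes. C1qb had no UMI in NO_AG and was at 2.17 and 0.446 in AG_CPI, and monocyte and macrophage markers summed to 0.53 and 0.98 in NO_AG against 7.53 and 2.21 in AG_CPI. Myeloid cells also make Irf8, Maf, Zeb2, Entpd1, Ccl3 and Ccl4, and their part in these differences was not tested. Icos, Tnfrsf4 and Tnfrsf9 rose among 11 costimulatory receptors and Cd40lg fell. Klrd1, which encodes CD94, was at 2.74 and 3.13 (NO_AG), 4.34 and 6.17 (AG) and 16.8 and 10.6 (AG_CPI). AG lay between the other groups without overlap, and AG_CPI against NO_AG differed by 2.19 (SE 0.22, adjusted p 3.0e-06).

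Of 13 tested residency genes 4 were called lower and 1 higher in this pair of groups, with a median log2 difference of -0.22. Over all genes 0.972% were called lower and 1.48% higher, with a median of -0.01. Itgae, the integrin that holds T cells to epithelium, was at 3.73 and 4.54 (NO_AG), 3.21 and 1.71 (AG) and 0.894 and 1.39 (AG_CPI). Both AG_CPI mice lay below the other 4, and the difference from NO_AG was -1.76 (SE 0.27, adjusted p 0.00049). Cd69, Zfp683, the transcription factor Hobit, and Cdh1 also fell and Rgs1 rose. Vim (-1.42), a cytoskeleton gene, and Anxa1 (-2.09), an anti-inflammatory phospholipid-binding protein, fell as well. Ifi27l2a rose among the interferon genes and Socs1 fell. The count was 72 without AG_CPI 1, 75 without NO_AG 1, 120 without NO_AG 2 and 126 without AG_CPI 2. Gzmb (0.96, SE 0.19, adjusted p 0.0059) no longer passed without any 1 of the 4 mice of this comparison (adjusted p 0.0599 to 0.0923), and Tcf7 (-1.11, SE 0.27, adjusted p 0.024) without either NO_AG mouse or AG_CPI 2 (0.162 to 0.215).

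Host and P14-like cells were then compared within the 4 antigen-bearing mice, with the mouse as a block. Both classes held only cells without a Trdc UMI, and neither this comparison nor the interaction below was run with Trdc allowed. 32 of 7721 genes passed (0.414%), 19 higher in host cells (0.246%) and 13 lower (0.168%), and 16 of the 32 were receptor segments or constant genes, which the rule sets in part. Ccr2, a chemokine receptor of recruited effector cells, was at 0.259 and 0.243 (AG) and 0.842 and 0.415 (AG_CPI) in host cells and 0.953 and 0.706 (AG) and 2.62 and 1.96 (AG_CPI) in P14-like cells. Host cells were lower in each mouse, with a log2 difference of -1.58 (SE 0.17, adjusted p 0.00074). Gzma was at 36.9 and 20.8 (AG) and 90.6 and 81.2 (AG_CPI) in P14-like cells, above the host cells of each mouse, and differed by -2.13 (SE 0.31, adjusted p 0.012). Klrk1, which encodes the activating receptor NKG2D, was lower in host cells, with a difference of -1.02 (SE 0.15, adjusted p 0.011). Host cells held more Tcf7 (1.85, SE 0.33, adjusted p 0.036), Cd7 (1.27, SE 0.20, adjusted p 0.019), Cd5, a negative regulator of receptor signalling (0.86, SE 0.14, adjusted p 0.022), and Trat1 (2.34, SE 0.40, adjusted p 0.026). The fit took AG and AG_CPI together, so these values average over both groups. For Gzma and Tcf7 the class difference itself changed with CPI, as given below. Of 10 alternatives, the call of Tcf7 was lost in 6, that of Cd5 in 8, of Trat1 in 4 and of Cd7 in 2. Ccr2 and Klrk1 passed whichever mouse was left out. Of the 16 named genes 12 were lost without AG 1, 11 without AG 2, 8 without AG_CPI 1, 10 without AG_CPI 2 and 15 without the filter on low values.

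The difference that went with CPI was itself different in host and P14-like cells. The interaction, which is the log2 difference of AG_CPI against AG in host cells minus that in P14-like cells, passed for 250 of 7721 genes (3.24%), 133 higher (1.72%) and 117 lower (1.52%). The fit has 2 residual degrees of freedom over 8 pairs of mouse and cell class. Of 13 dissociation and stress genes 4 had a lower interaction (Fos, Junb, Ier2 and Dnajb1) and none a higher one, with a median of -1.06 against 0.0026 over all genes, and their part in the other interactions was not tested. Of 11 inhibitory receptors 7 had a higher interaction and 1 a lower one, with a median of 2.47. Ccl5 rose in host cells but in P14-like cells went from 218 and 184 in AG to 86.8 and 101 in AG_CPI. P14-like cells held more Ccl5 than host cells in both AG mice and less in both AG_CPI mice, and the interaction was 2.71 (SE 0.14, adjusted p 2.6e-13).

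Pdcd1 in P14-like cells was at 3.18 and 2.24 (AG) and 2.02 and 2.33 (AG_CPI). These values overlapped between the groups, whereas host cells went from 0.73 or less in AG to 3.79 or more in AG_CPI, and the interaction was 3.67 (SE 0.43, adjusted p 1.9e-06). Lag3 was at 9.46 and 6.13 (AG) and 4.47 and 5.497 (AG_CPI) in P14-like cells, lower with CPI, with an interaction of 3.45 (SE 0.37, adjusted p 3.6e-07). Tigit went from 4.42 and 3.50 to 1.93 and 2.50, with 3.37 (SE 0.30, adjusted p 9.5e-09). Tox was at 0.981 and 1.14 (AG) and 0.472 and 0.472 (AG_CPI), with 3.18 (SE 0.31, adjusted p 5.7e-08). For Lag3, Tigit and Tox the levels of both P14-like AG_CPI mice lay below those of both AG mice, the opposite order to host cells, and that order in P14-like cells was not tested on its own. Gzma was higher with CPI in both classes and more so in host cells on this scale, with an interaction of 1.85 (SE 0.20, adjusted p 3.9e-07), while it stayed higher in P14-like cells in all 4 mice.

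Itgae and Il7r had negative interactions. Itgae was at 1.37 and 0.295 (AG) and 2.96 and 4.06 (AG_CPI) in P14-like cells, higher with CPI, while host cells went from 3.21 and 1.71 to 0.894 and 1.39. The interaction was -3.20 (SE 0.27, adjusted p 8.1e-09). Il7r was at 0.745 and 0.819 (AG) and 2.44 and 2.85 (AG_CPI) in P14-like cells, also higher with CPI, with -2.44 (SE 0.23, adjusted p 3.5e-08). Itga1 and Cd69 were the other residency genes with a negative interaction, 3 of 12 tested. Without AG_CPI 1, 80 genes passed and without AG_CPI 2, 77; the calls of Prf1, Itga1 and Cxcr3 were lost without AG_CPI 1, that of Ctla4 without AG_CPI 2, and that of Tcf7 without either of them or AG 2. Without the filter on low values 9 named genes were lost, Pdcd1 (adjusted p 0.094), Lag3 (0.072), Havcr2 (0.074), Ctla4 (0.069) and Gzma (0.072) among them, and 3 were lost with thinned cells. The P14-like cells of AG_CPI 1 were female-like and its host cells male-like, and in this mouse class and sex cannot be told apart.

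**Figure D5:**
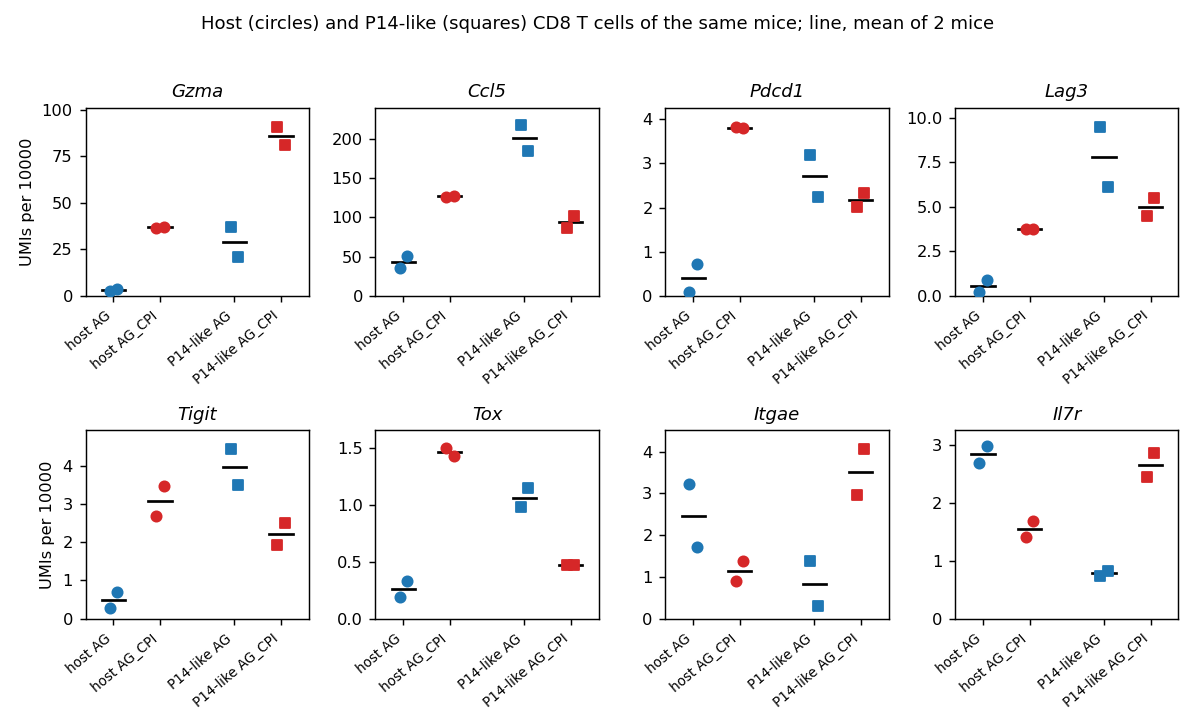
Mean level (UMIs per 10000, linear axis from 0) of 8 genes in host (circles) and P14-like (squares) CD8 T cells of the 2 AG and 2 AG_CPI mice, with a line at the mean of 2 mice. Pdcd1, Lag3 and Tigit are higher with CPI in host cells only among these 2 classes, and Itgae and Il7r are higher with CPI in P14-like cells.

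The antigen difference was also compared with that in conventional CD4 T cells, 17 to 107 cells per mouse, by the interaction of AG against NO_AG with the class. None of 8750 genes passed with limma (0% called), while 363 had an unadjusted p under 0.05; the alternatives that could be run called 0 to 3. The nearest of the named genes was Gzmb, at -3.67 with adjusted p 0.065. With 29 and 35 CD4 cells in NO_AG, the precision of this comparison is low, and it does not show that the classes responded alike.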

How the data were processed

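RNA of single skin cells was measured in 6 mice, 2 each in NO_AG, AG and AG_CPI. Reads were counted with Cell Ranger 3.1 on mm10, per the submitters' processing notes. The values deposited by the authors are log10 values, log10(1 + x), with x a gene's UMIs scaled to 10000 per cell. No header states this unit. It was read from the values, which gave whole UMIs for all genes after inversion. The 16158 gene columns include 8 symbols that head 2 columns. Every cell had 1501 to 14995 UMIs, and how cells were filtered is not given in the sources used here.

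The values were returned to the linear scale and averaged over the cells of a class in each mouse. TMM factors (trimmed mean of M-values) then scaled these means, which were converted to log2 after a pseudocount of 0.1 and fitted with limma-trend (limma 3.58.1, R 4.3.3). Genes needed 10 UMIs in total and a mean of 0.1 in at least 2 libraries. All 6 mice shared 1 fit with 3 residual degrees of freedom, and comparisons of cell classes had the mouse as a block. A gene was called below 0.05 after Benjamini-Hochberg adjustment over all genes tested. The fit was tested on simulated data. Scrublet (scanpy 1.11.5) scored doublets, and host cells with high scores, 0 to 8 per mouse, stayed in and were left out as an alternative.

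Named are up to 10 rising and 10 falling genes per comparison with the smallest p among called genes whose groups did not overlap, and 20 fixed genes. Genes of the selection, receptor, sex-linked, mitochondrial and ribosomal protein genes and markers of other cells were kept out of the first part; those that appear (Cd40lg, Trgv2, C1qb and the keratins among them), and further list members, were chosen after their values were seen. The cell selection, gene lists and naming rule were chosen with earlier results of these data known. The alternatives were scalings, filters, pseudocounts, voom weights, cell selections, thinned or equal cells, and each mouse left out. Keratinocytes here are cells with Krt5 and Krt14 at 20 or more together and no Cd3 UMI. A listed interferon response gene was left out of its list and is not reported here.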

Additional observations from a re-analysis of the deposited data

Results flagged for a closer look

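The difference of AG_CPI against AG itself differed between host and P14-like CD8 T cells for 27 of the named genes, by the interaction term of the limma fit. Positive interactions, in which host cells rose more or P14-like cells fell more, were found for inhibitory receptors: Pdcd1 (3.67), Lag3 (3.45), Tigit (3.37), Havcr2 (2.75) and Ctla4 (2.17). They were found for the transcription factor Tox (3.18) and for the effector genes Gzma (1.85), Gzmb (1.94), Prf1 (1.98) and Ccl5 (2.71). Tff1 (3.76), Penk (3.37), Gimap7, a GTPase of lymphocytes (3.70), and Itga4, the alpha-4 integrin (3.57), were the others.

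Negative interactions were found for the integrins Itgae (-3.20) and Itga1 (-1.51), for Il7r (-2.44), Tcf7 (-1.75) and Cxcr3 (-1.33), and for the cytoskeletal and nuclear lamina genes Tmsb10 (-1.11) and Lmna (-2.06). Rgs10 (-2.48) and Rgcc (-2.50), Tesc (-2.48), Jaml, a junctional adhesion protein (-2.13), Ly6e (-1.37) and the early response gene Fos (-1.86) were also negative. All are log2 values over 2 mice per group, and host and P14-like cells of a mouse share a library.

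Ddx3y, which the comparisons did not use, had a UMI in 9 host cells of AG_CPI 1 and in none of the host cells of the other 5 mice. In P14-like cells of that mouse 2 had one, and the cause was not tested.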

How the results depend on the processing

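No called result changed its sign. For AG against NO_AG, 19 genes passed, and 1 without a filter on low values, 5 with voom weights, 33 with equal cells per mouse, 6 without cells that had a Trav14 UMI and 32 with cycling cells kept; leaving out 1 mouse gave 2 to 49. For AG_CPI against AG, 83 became 6 without the filter, 48 with cells thinned to 1500 UMIs and 20 to 82 with a mouse left out. For AG_CPI against NO_AG, 187 became 56 without the filter, 113 with voom weights and 72 to 214 with a mouse left out. Host against P14-like cells gave 32, then 10 without the filter and 16 to 28 with a mouse left out. Their interaction with CPI gave 250, then 41 without the filter, 147 when thinned and 77 to 296 with a mouse left out. The interaction with CD4 T cells gave 0, then 1 each with the deposited scaling, a pseudocount of 0.5, 2 UMIs of the beta segment or no Trav14 UMI, 3 when thinned and 0 to 2 with a mouse left out. Dropping the filter raises the number of genes tested, and the cause of the other shifts was not tested.

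With at least 2 UMIs of other beta segments the host share of gated CD8 T cells in NO_AG moved from 72.1% to 57.7%. In AG_CPI the share of all cells, 7.13%, became 6.04% with 2 UMIs, 5.88% without Trav14 cells, 7.77% with Trdc allowed, 6.40% with no keratin UMI and 8.20% with cycling cells. The share of gated CD8 T cells there, 19.3%, became 16.4%, 15.97% and 14.05% under the first 3 of these. Requiring 2 UMIs and no Trav14 UMI together, chosen after seeing the data, gave 15, 60 and 125 calls in the 3 host comparisons. Same-numbered mice did not deviate together (correlations -0.06, 0.00 and -0.10), and a replicate block gave 20, 76 and 180 calls. Of the named genes' values under the alternatives, 1445 kept a call and 222 lost it, and of values not called at first 1143 stayed uncalled and 20 were called. With 2 mice per group, small differences of low genes were not detectable.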

Other observations

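Of 7 Gimap genes tested, all outside the fixed lists, 5 had a positive interaction between CPI and cell class that passed, where 1.72% of all 7721 genes tested did. The Gimap genes encode GTPases of lymphocytes and lie in 1 cluster in the genome; they were picked after their values were seen, so no test supports them as a group. Gimap7 was at 0.345 and 0.659 (AG) and 1.87 and 2.12 (AG_CPI) in host cells and 1.30 and 2.87 (AG) and 0.621 and 0.363 (AG_CPI) in P14-like cells, with an interaction of 3.70. Gimap4 was at 1.19 and 1.86 (AG) and 3.76 and 3.68 (AG_CPI) in host cells and 1.91 and 3.37 (AG) and 2.11 and 1.19 (AG_CPI) in P14-like cells, with an interaction of 1.94. Gimap3 was at 0.758 and 1.42 (AG) and 2.38 and 2.65 (AG_CPI) in host cells and 1.53 and 1.88 (AG) and 1.36 and 1.1 (AG_CPI) in P14-like cells, with an interaction of 1.67. Gimap5 and Gimap6 had interactions of 1.49 and 1.59. Gimap1 (0.80, adjusted p 0.075) and Gimap8 (0.52, adjusted p 0.60) did not pass in limma. The P14-like levels of Gimap7 lay lower with CPI in both mice, while those of host cells were higher.

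Itga4, which pairs with beta chains to bind VCAM-1 on vessel walls, also had a positive interaction and was picked after its values were seen. Itga4 was at 0.0973 and 0.494 (AG) and 1.24 and 2.22 (AG_CPI) in host cells and 0.626 and 1.57 (AG) and 0.345 and 0.440 (AG_CPI) in P14-like cells, with an interaction of 3.57. Cd200, a ligand that restrains myeloid cells and is also made by activated T cells, was likewise picked after its values were seen. Cd200 was at 0.0312 and 0.113 (AG) and 0.895 and 0.820 (AG_CPI) in host cells and 0.459 and 0.371 (AG) and 0.282 and 0.333 (AG_CPI) in P14-like cells, with an interaction of 2.89.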
